A study of Picea abies with 40 samples.

Results

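The genes described here are the 150 that stood highest in all 3 stele regions of the Norway spruce seedling root relative to the other captured regions, out of 70736 gene IDs counted. A gene qualified when its lowest stele mean was at least 5 CPM (a gene's count scaled to the library total) and at least 2-fold above both the QC area and the ground tissue. Genes with a whole-root zone 2-fold or more above every other zone were left out, and the rest were ranked by the log2 ratio of (lowest stele mean + 1 CPM) to (higher of the QC area and ground tissue means + 1 CPM). The level was met by 9893 genes and the level and the fold by 694. Of these 694, 95 were left out for a zone peak, 53 of them in zone 4, 25 in zone 3, 16 in zone 2 and 1 in zone 1. The first 150 of the remaining 599 are the members. The stele means against the QC area and the ground tissue therefore chose the members, and those values are given as a description without a test.

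Roots of Norway spruce (Picea abies), a conifer, came from seedlings grown on plates until about 2 days after germination. The labels name no treatment, genotype or seed source for any group. Whole segments cut in order from the tip, 3 of them 1 mm and 1 of them 2 mm long, gave zones 1 to 4 with 5 libraries each. Cells cut from sections by laser capture microdissection gave the QC area (the abbreviation is the labels' own), ground tissue, stele 1, stele 2 and stele 3 with 4 libraries each. The steles were taken where the root elongates and differentiates, per the labels, which do not give the place of each number. The stele columns share the codes Z1 to Z3 with zone columns, but whether these mark the same places is not said. The labels of the QC area and ground tissue carry the number 1, as those of stele 1 do, and the ground tissue is there called endo. Whether replicates were separate seedlings or pools is not said either, so the p-values measure the spread between these libraries, which may be technical. No marker of any region could be checked, because the gene IDs come without names. For the same reason no role and no sequence is given for any member.

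The stele is the central cylinder of the root. It holds the xylem, which conducts water, the phloem, which conducts sugars, and the pericycle around them, and the ground tissue of cortex and endodermis encloses it. Cells arise near the tip, elongate and then differentiate, so a section farther from the tip holds older vascular cells.

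The libraries held 3.53 to 7.25 M counts in the zones and 4.94 to 12.0 M in the captured regions. The spread between libraries was wider after laser capture (biological coefficient of variation 48.2%) than in the zones (16.02%). Lane 3 of the sequencer held all zone libraries, lane 8 the QC area and lane 7 stele 2. The other captured groups were split over lanes 7 and 8, with ground tissue replicate 2, stele 1 replicates 1 and 2 and stele 3 replicates 2 to 4 in lane 7. Zone and captured RNA was extracted by different protocols, so no zone was tested against a captured region.

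Most members were low in the QC area and ground tissue, as the rule favoured, and together they took up to several percent of the counts in the steles. No ground tissue label carries the number 2 or 3. Beside steles 2 and 3, tissue and place along the root therefore cannot be told apart. The median over members of the group mean was 25.0 CPM in stele 1, 106 CPM in stele 2 and 164 CPM in stele 3. It was 0.627 CPM in the QC area and 0.681 CPM in the ground tissue. Together the members took 1.22% ± 0.87 (SD, n = 4) of the counts in stele 1, 4.64% ± 1.19 in stele 2 and 6.75% ± 0.75 in stele 3 (n = 4 each). The same genes took 0.055% ± 0.028 of the counts in the QC area and 0.058% ± 0.015 in the ground tissue (n = 4 each). In bulk samples such as these, fewer cells of a type and less RNA per cell cannot be told apart.

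**Figure D1:**
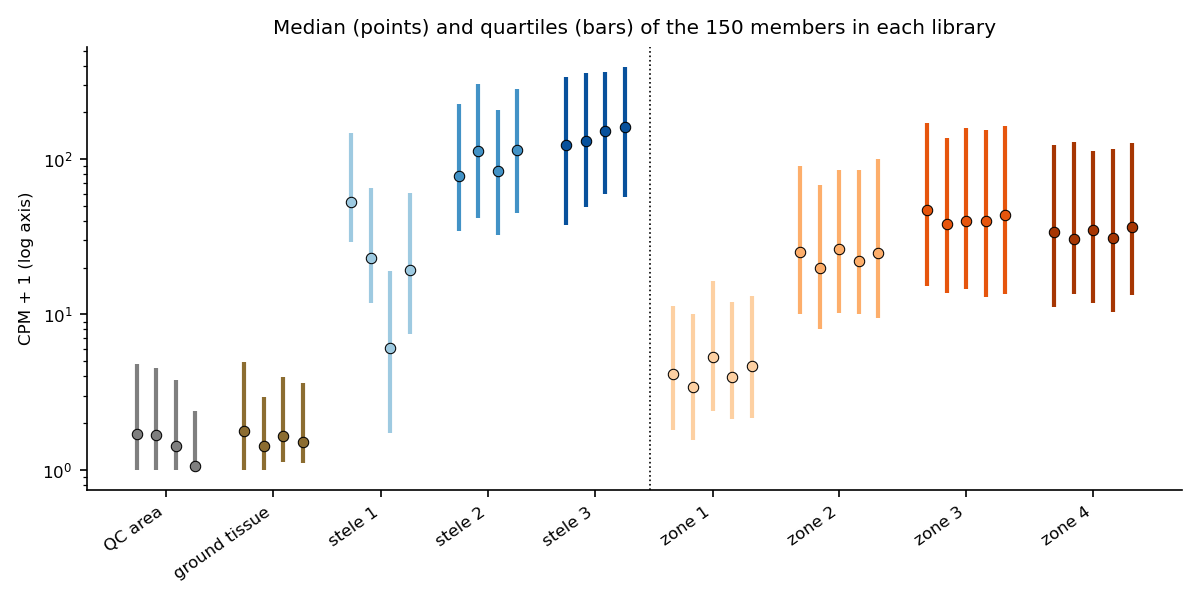
Median CPM + 1 of the 150 members in each library (points, log axis) with the lower and upper quartile over members (vertical bars), libraries grouped by region, captured regions left of the dotted line and zones right of it. The QC area and ground tissue medians lie between 0.055 and 0.770 CPM, the stele 1 medians run from 5.08 to 51.7 CPM, and the stele 3 medians from 122.6 to 161 CPM.

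The lowest stele mean exceeded the higher of the QC area and ground tissue means by a median of 18.6 times and at least 6.12 times. In the QC area and the ground tissue together, 8 members had no count in any of the 8 libraries, and 9 more had 1 to 3 counts. The QC area lacked any count of 27 members, and the ground tissue of 12. Both means were under 1 CPM for 72 members, while 24 members exceeded 10 CPM in at least 1 of these regions. All 12 stele libraries lay above all 8 libraries of the QC area and ground tissue for 88 members. That held for 1.93% of the 27239 genes tested and for 4.13% of genes with at least 5 CPM in each stele, and since the rule used these levels nothing is read from the difference. By stele, 92 members had every stele 1 library above all 8, 148 every stele 2 library and 146 every stele 3 library. Without stele 1 replicate 3 the 88 became 142. The counts by stele and without this library were not made over all genes, and nothing is read from them either.

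Because 1 CPM was added to both means, the score rested on the level as well as on the ratio. The members just inside the limit were MA_6810759g0010 at rank 149, with a score of 2.58 from 226 CPM in its lowest stele and 36.9 CPM in the ground tissue, and MA_93977g0010 at rank 150, with 2.57 from 178 and 29.1 CPM. The genes just outside were MA_119222g0010, with 2.56 from 12.6 and 1.30 CPM, and MA_571554g0010, with 2.56 from 6.65 and 0.297 CPM. The score ran from 6.46 at rank 1 through a median of 3.33.

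**Figure D2:**
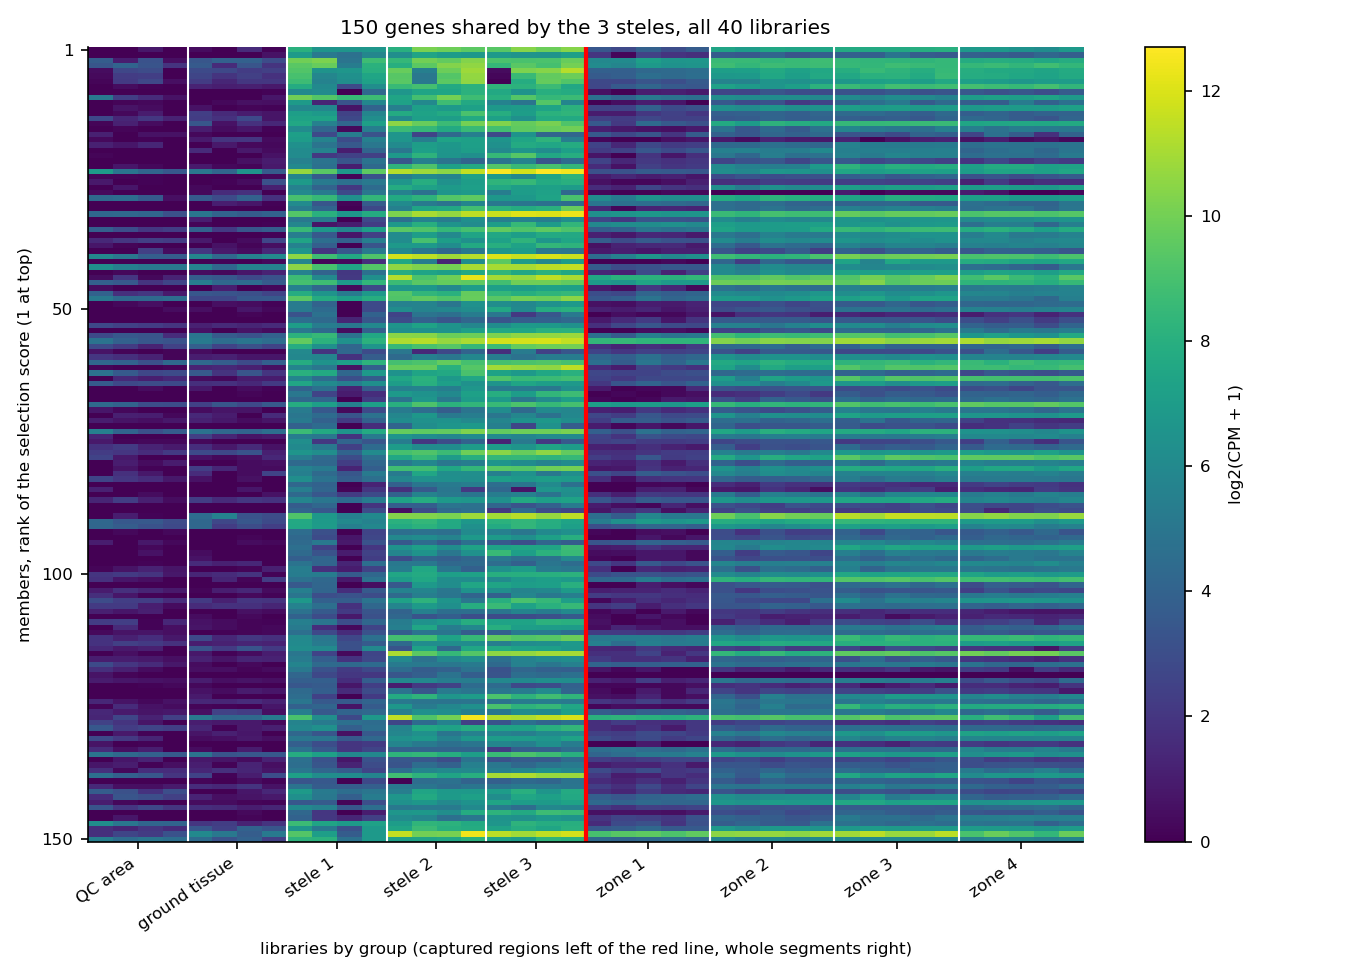
Log2(CPM + 1) of the 150 members (rows, in order of rank) in all 40 libraries (columns, by group), with captured regions left of the red line and zones right of it. The columns of the QC area and ground tissue are dark for most members, stele 1 replicate 3 is the dimmest stele column, and the first zone is dimmer than zones 2 to 4.

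MA_10432781g0010 had the highest score. Its stele 1 libraries held 267, 95.5, 97.3 and 99.7 CPM (here and below in order of replicate), its stele 2 libraries 254, 1134, 949 and 725 CPM and its stele 3 libraries 673, 1323, 923 and 1354 CPM. The QC area held 0, 0, 0.749 and 0 CPM and the ground tissue 0.330, 0, 1.97 and 0.103 CPM. Every stele library lay far above every other captured library, and 1 of the 4 QC area libraries held all of that region's 7 counts. The ratio of means to the ground tissue was 233 in stele 1, 1274 in stele 2 and 1777 in stele 3. Along the zones it held 9.88 ± 3.52, 166 ± 21.9, 228 ± 20.3 and 101 ± 19.5 CPM (SD, n = 5 each), with zone 1 lowest and zone 3 highest.

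MA_10432716g0020 ranked second with a lower and flatter level. It held 121, 34.3, 26.0 and 56.4 CPM in stele 1, 76.7, 169, 125 and 108 CPM in stele 2 and 114, 93.9, 91.2 and 144 CPM in stele 3. It had no count in any QC area library and 5 counts in the ground tissue, all in replicate 4. Its counts, pooled over each group and scaled to the summed library totals, were set against a floor of 3 counts over the QC area. They were at least 628-fold higher in stele 1, at least 1473-fold in stele 2 and at least 1331-fold in stele 3. The stele libraries lay above all QC area and ground tissue libraries, and the steles overlapped each other. Its zone means were 2.54 ± 1.60, 12.3 ± 2.83, 16.2 ± 7.40 and 14.0 ± 2.34 CPM (SD, n = 5 each), where zones 2 to 4 overlapped, and 1 zone 3 library, at 29.1 CPM, exceeded the lowest stele 1 library.

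MA_264606g0010 and MA_161458g0010, at ranks 3 and 4, combined a high level with a count in every library outside the stele. MA_264606g0010 held 982, 1162, 28.9 and 432 CPM in stele 1, 348, 1009.8, 804 and 1288 CPM in stele 2 and 543, 534, 549.5 and 872 CPM in stele 3, while its mean was 5.54 ± 5.85 CPM in the QC area and 11.3 ± 3.82 CPM in the ground tissue (SD, n = 4 each). MA_161458g0010 held 709, 871, 39.4 and 273 CPM in stele 1, 252, 729, 1278 and 1565 CPM in stele 2 and 355, 707, 489 and 1039 CPM in stele 3, with 9.40 ± 5.55 and 6.22 ± 4.54 CPM in the 2 regions outside (n = 4 each). For both genes stele 1 replicate 3 was the low library of the steles, and it still exceeded every QC area and ground tissue library. In the zones, MA_264606g0010 held 92.9 ± 32.1, 382 ± 34.3, 332 ± 17.6 and 223 ± 20.6 CPM, and MA_161458g0010 held 84.2 ± 24.8, 397 ± 38.2, 377 ± 37.3 and 375 ± 50.6 CPM (n = 5 each), and for both every zone 1 library lay below every library of zones 2 to 4.

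The members with the highest mean over the steles were MA_10436783g0010 and MA_18297g0010. MA_10436783g0010 had 802 ± 628 CPM in stele 1, 2204 ± 689 CPM in stele 2 and 5542 ± 1337 CPM in stele 3 (SD, n = 4 each), while the QC area held 119, 29.7, 16.9 and 10.4 CPM. QC area replicate 1 lay above stele 1 replicate 3, which held 114.6 CPM. MA_18297g0010 held 681 ± 565, 2692 ± 725 and 3624 ± 489.6 CPM in steles 1 to 3 (n = 4 each), with its stele 1 libraries at 1494, 436, 204 and 589.9 CPM and no other captured library above 62.0 CPM.

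**Figure D3:**
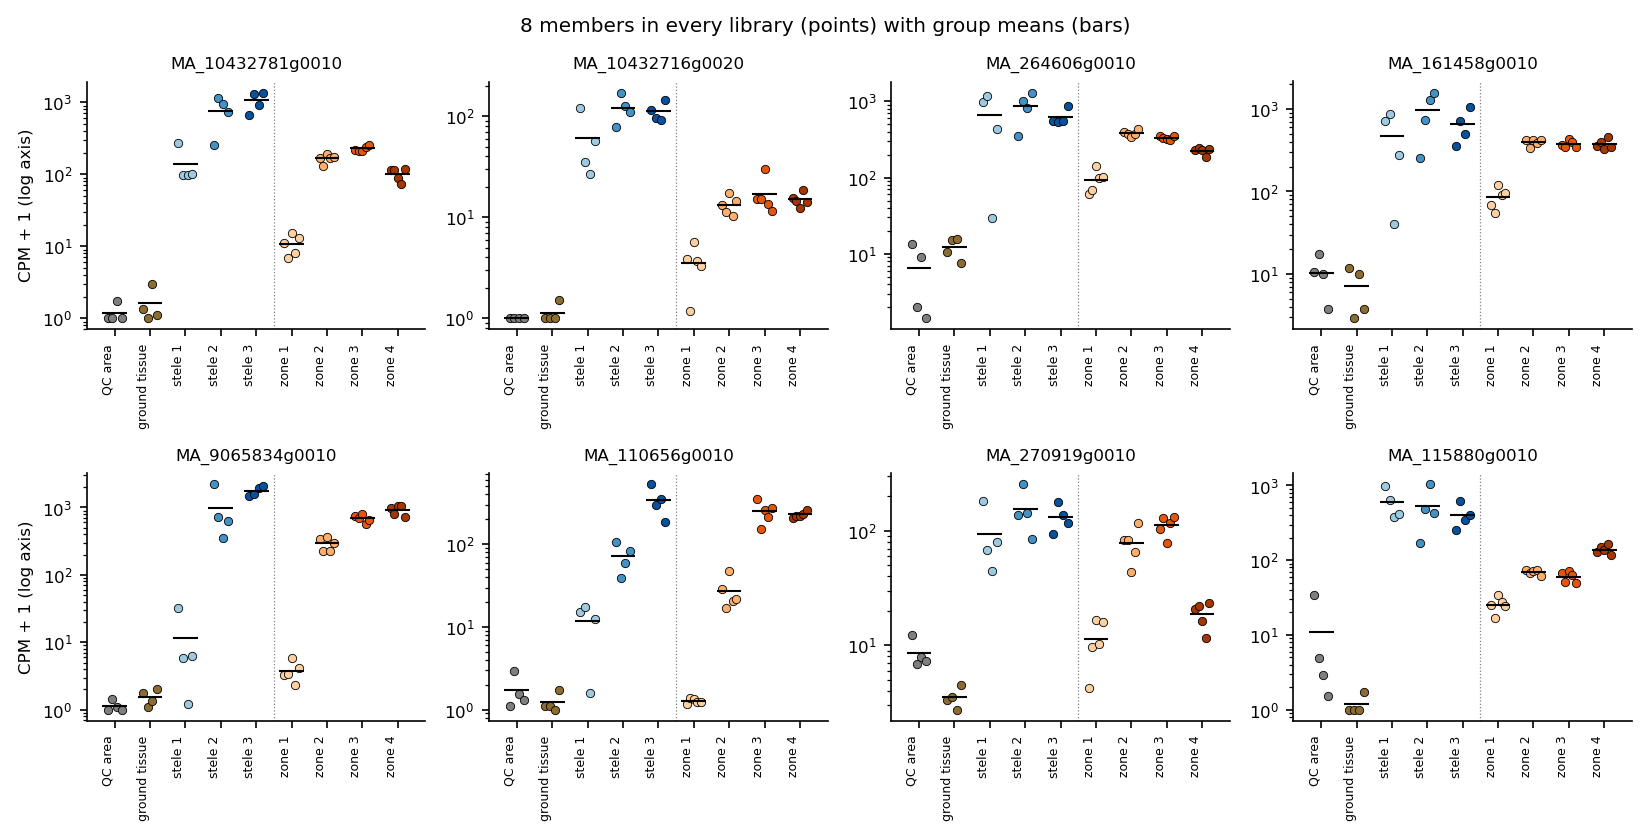
CPM + 1 (log axis) of 8 members in every library (points) with group means (bars), captured regions left of the dotted line. The top row shows ranks 1 to 4, and the bottom row shows MA_9065834g0010 and MA_110656g0010, which are low in stele 1 and zone 1, MA_270919g0010, which drops from zone 3 to zone 4, and MA_115880g0010, which is highest in stele 1.

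Among the steles, stele 1 varied most between its libraries. The member median was 51.7, 22.2, 5.08 and 18.2 CPM in its replicates 1 to 4, against 76.4 to 113.6 CPM over the stele 2 libraries and 122.6 to 161 CPM over the stele 3 libraries. Replicate 1 was the highest stele 1 library for 128 members, and replicate 3 the lowest for 128. Over members, the median coefficient of variation was 82.6% in stele 1, 43.0% in stele 2 and 32.3% in stele 3, beside 89.1% in the QC area and 77.5% in the ground tissue, where most members were near 0. Over all genes with at least 5 CPM in each stele it was 24.0%, 29.3% and 25.6%. A single library held over 60% of the stele 1 CPM for 39 members, compared with 7 in stele 2 and 5 in stele 3, and 19 members had no count in at least 1 stele 1 library.

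Genes higher in the QC area and ground tissue than in steles 2 and 3 moved in the opposite direction across the stele 1 libraries. The 1002 genes with at least 5 CPM in the QC area and in the ground tissue and 4-fold above steles 2 and 3 took 2.52%, 3.69%, 5.49% and 4.04% of the counts in stele 1 replicates 1 to 4, whose values had no part in choosing them. Their share was 0.198% to 0.319% in stele 3, 0.412% to 1.52% in stele 2, 5.03% to 6.51% in the ground tissue and 7.11% to 7.79% in the QC area. Stele 1 replicate 3, with the lowest member median, was the highest stele library for these genes, and the order of the 4 stele 1 libraries was reversed. Whether these genes follow the tissue or the place along the root cannot be told apart here. Their part in the differences between stele 1 and the other steles was not tested.

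Members were mostly lowest in stele 1 and highest in stele 3. The mean was lowest in stele 1 for 138 members, against 37.0% of all genes with at least 5 CPM in each stele, and highest in stele 3 for 105, against 27.8%. The order stele 1, stele 2, stele 3 from low to high held for 103 members, and stele 1, stele 3, stele 2 for 35. The highest and lowest stele mean differed by a median of 4.18 times, with 27 members within 2-fold and 36 over 10-fold apart. The rule had capped the QC area and ground tissue, and stele 1 was the stele nearest to them in all tested genes. On the first principal component, the main axis of difference between captured libraries, stele 1 lay at -4.67 to 124.9. The QC area and ground tissue lay at 119.2 to 174.6 and steles 2 and 3 at -254.6 to -69.8. The lowest stele mean also entered the rule, as the floor and in the score. The comparisons between steles below are therefore not independent of how the members were chosen. How far the cap or this use of the stele means shaped the counts, here and in the comparisons below, was not tested.

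For stele 2 against stele 1, edgeR's quasi-likelihood test, Benjamini-Hochberg adjusted over all 27239 tested genes, called 73 of the 150 members higher and 0 lower. Over all tested genes 12.4% were higher and 8.97% lower, and over genes with at least 5 CPM in each stele 18.8% and 9.59%. The median log2 fold change was 1.93 over the members, -0.05 over all tested genes and 0.16 over those with at least 5 CPM in each stele. At an unadjusted p under 0.05 edgeR also gave 0 members lower, beside 16.1% of all tested genes, and DESeq2 called 0 lower, beside 13.0%. With only these 2 groups fitted, 43 members were higher, beside 7.60%. The lanes bear on this count, because all stele 2 libraries came from lane 7. Within lane 7, which leaves 2 stele 1 libraries, 31 members were called higher, beside 2.00% of all tested genes. With lane as a term 59 were called higher, beside 9.50%. Without stele 1 replicate 1 the number was 102, beside 3654 of all 28243 genes tested then.

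MA_9065834g0010 showed the largest rise, from 31.2, 4.85, 0.231 and 5.28 CPM in stele 1 to 2208, 719, 347 and 632 CPM in stele 2. The groups did not overlap, and stele 1 replicate 1 held most of the stele 1 counts. The edgeR log2 fold change was 6.74 ± 0.92 SE (adjusted p = 0.000107, n = 4 each), and 8.28 without stele 1 replicate 1. MA_239561g0010 rose from 51.7, 32.2, 0.462 and 13.9 CPM to 828, 828, 270.1 and 649 CPM (edgeR log2 fold change 4.86 ± 0.76 SE, adjusted p = 0.000305).

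The step from stele 2 to stele 3 called few members. Here 3 members were higher and 0 lower, beside 3.85% and 9.16% of all tested genes and 5.77% and 9.74% of those with at least 5 CPM in each stele. The count depended on the fit, since with only these 2 groups fitted 17 members were higher, beside 2.51% of the 20938 genes tested. At an unadjusted p under 0.05 edgeR also gave 0 lower, beside 18.6%. DESeq2 called 6 higher, beside 7.98% of all genes, and 0 lower, beside 12.1%. The log2 fold change was above 0 for 127 members, with a median of 0.60 over the members, -0.11 over all tested genes and 0.01 over those with at least 5 CPM in each stele. MA_105236g0010 rose from 447, 296, 171 and 246 CPM in stele 2 to 2018, 2231, 1679.6 and 1768 CPM in stele 3 (edgeR log2 fold change 2.96 ± 0.63 SE, adjusted p = 0.00519). MA_110656g0010 rose from 105, 38.5, 58.3 and 82.0 to 530.5, 294, 351 and 183 CPM (edgeR log2 fold change 2.49 ± 0.64 SE, adjusted p = 0.0161). No stele 2 library overlapped stele 3 for either gene. The other call, MA_93348g0010, named after its values were seen, rose from 64.5 ± 27.7 to 297 ± 119 CPM (n = 4 each, edgeR adjusted p = 0.0169). Its adjusted p was 0.0514 without stele 2 replicate 3 and 0.0537 within lane 7, both by edgeR.

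Stele 3 against stele 1, which shares its libraries with both steps, called 106 members higher and 0 lower, beside 20.9% and 25.2% of all tested genes and 30.2% and 21.6% of those with at least 5 CPM in each stele. At an unadjusted p under 0.05 edgeR also gave 0 lower, beside 29.1%, and DESeq2 called 0 lower, beside 26.4%. Within lane 7, edgeR called 75 higher, beside 7.66%. Within lane 8, where stele 3 has 1 library, whose spread is taken from the other groups, it called 97 higher, beside 14.5%, and 3 lower, beside 21.9%. MA_9065834g0010 held 1484, 1585, 1928 and 2058 CPM in stele 3 (edgeR log2 fold change over stele 1 7.84 ± 0.96 SE, adjusted p = 3.98e-06). MA_239561g0010 held 1930.0, 1712, 1566 and 2801 CPM (edgeR log2 fold change 6.74 ± 0.82 SE, adjusted p = 3.81e-06).

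A smaller set was level along the steles. The most even members were MA_10148174g0010 and MA_5215129g0010. MA_10148174g0010 held 401, 169, 120.5 and 151 CPM in stele 1, 130.4, 314, 282 and 209 CPM in stele 2 and 96.8, 297, 235 and 249 CPM in stele 3, and the 3 regions overlapped. MA_5215129g0010 held 23.3, 19.3, 1.50 and 9.53 CPM in stele 1, 11.8 ± 4.85 CPM in stele 2 and 13.3 ± 3.96 CPM in stele 3 (SD, n = 4 each), and had no count in any QC area or ground tissue library. The even means went with a wide spread inside stele 1, where replicate 3 was the lowest library for both.

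Only 7 members had their highest mean in stele 1, and 3 of those moved together from library to library. MA_369117g0010 held 145, 5.93, 39.3 and 8.37 CPM in stele 1, 95.9, 4.84, 19.4 and 44.3 CPM in stele 2 and 6.10, 90.6, 17.6 and 17.4 CPM in stele 3. MA_10432757g0010 held 61.2, 2.69, 18.1 and 6.57 CPM, 32.3, 1.75, 5.74 and 15.6 CPM and 2.13, 38.4, 4.39 and 9.43 CPM in the same libraries, and MA_10321205g0010 held 75.3, 3.10, 16.6 and 9.14 CPM, 39.7, 3.09, 6.67 and 14.9 CPM and 1.37, 34.7, 3.26 and 10.7 CPM. Stele 1 replicate 1, stele 2 replicate 1 and stele 3 replicate 2 were the highest library of their group for all 3 genes. In zone 4 all 3 were highest in replicate 2 and lowest in replicate 4, at 24.7 and 2.44 CPM for MA_369117g0010. These genes were chosen after their values were seen, and so were those of the next paragraph.

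Another 3 members, among the highest ranks, were near 0 in 1 stele 3 library and low in 1 stele 2 library. MA_8465203g0010, at rank 5, held 0.305, 1182, 1347 and 2506 CPM in stele 3 and 855, 44.0, 919.8 and 1838 CPM in stele 2. MA_6944718g0010, at rank 6, held 0.152, 392, 801 and 928 CPM and 666, 31.3, 622 and 1579 CPM in the same libraries, and MA_556757g0010, at rank 7, held 0, 232, 822 and 609 CPM and 694, 32.9, 728 and 1561 CPM. Stele 3 replicate 1 and stele 2 replicate 2 were the low libraries for all 3 genes, although the member median in those libraries was 122.6 and 111 CPM. QC area replicates 1 and 4 were also low for all 3, at 0 to 0.437 CPM, against 3.54 to 6.74 CPM in replicates 2 and 3. All stele 1 libraries held them, at 92.1 to 609, 56.2 to 509 and 49.3 to 411 CPM in order of rank. So did every zone 3 library, at 238 to 369.8, 198 to 387 and 104 to 204 CPM. Over all members, 6 had a stele 2 library under 5% of the group's median and 4 had such a stele 3 library, these 3 genes among both.

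The QC area and the ground tissue were compared with each other, although the rule had capped the level of every member in both, so the counts are not read against those over all genes. EdgeR called 4 members higher in the ground tissue and 9 lower, beside 3.23% and 1.51% of all tested genes, and the mean was higher in the QC area for 63 members. DESeq2 called 22 higher, beside 4.67%, and 12 lower, beside 2.71%. MA_74039g0010 showed the largest rise, from 0, 1.03, 0.107 and 0 CPM in the QC area to 21.8, 49.1, 8.58 and 6.61 CPM in the ground tissue (edgeR log2 fold change 6.30 ± 1.05 SE, adjusted p = 0.00117), and QC area replicate 2 held 9 of the 10 QC area counts. MA_6810759g0010 rose from 4.83 ± 2.48 to 36.9 ± 21.5 CPM (SD, n = 4 each, edgeR adjusted p = 0.0492), and this call was lost when any of 7 of the 8 libraries was left out. The other 2 calls, seen afterwards, were MA_470854g0010, with 1 count in the QC area and 44 in the ground tissue (ratio 42.9, 95% counting interval 7.31 to 1733), and MA_10434624g0020, with 2.19 ± 0.638 and 9.60 ± 4.18 CPM (n = 4 each). Both were also lost when single libraries were left out.

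MA_10148174g0010, the evenest member along the steles, was lower in the ground tissue, with 73.8, 30.9, 16.4 and 16.0 CPM in the QC area and 2.97, 3.95, 1.39 and 2.79 CPM in the ground tissue. Its edgeR log2 fold change was -3.55 ± 0.56 SE (adjusted p = 0.000695), and the groups did not overlap. MA_10429164g0010 fell from 34.7, 19.5, 18.9 and 22.0 to 5.61, 5.55, 10.3 and 10.5 CPM (edgeR log2 fold change -1.54 ± 0.40 SE, adjusted p = 0.0312), which was lost when any of 5 libraries was left out.

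In the whole-root segments the members were lowest at the tip. The median of the group means was 3.11 CPM in zone 1, 22.4 in zone 2, 40.5 in zone 3 and 33.0 in zone 4, and the members took 0.321% ± 0.043, 1.50% ± 0.18, 2.54% ± 0.13 and 1.80% ± 0.10 of the counts (SD, n = 5 each). Of the 149 members with a zone count, 142 were lowest in zone 1, against 37.1% of tested genes without a zone peak, and 79 were highest in zone 3, against 16.8%. Every zone 1 library lay below every library of zones 2 to 4 for 117 members, against 13.2% of those genes. The rule had removed genes with a zone peak, which limits how far a member can exceed its neighbouring zones, so each comparison below is also set against tested genes with no such peak. The rule had also capped the QC area and ground tissue, whose labels carry the number 1, which may have favoured genes low in zone 1. The genes without a zone peak carry no such cap. Its part in the counts here and in the comparisons with zone 1 below was not tested.

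**Figure D4:**
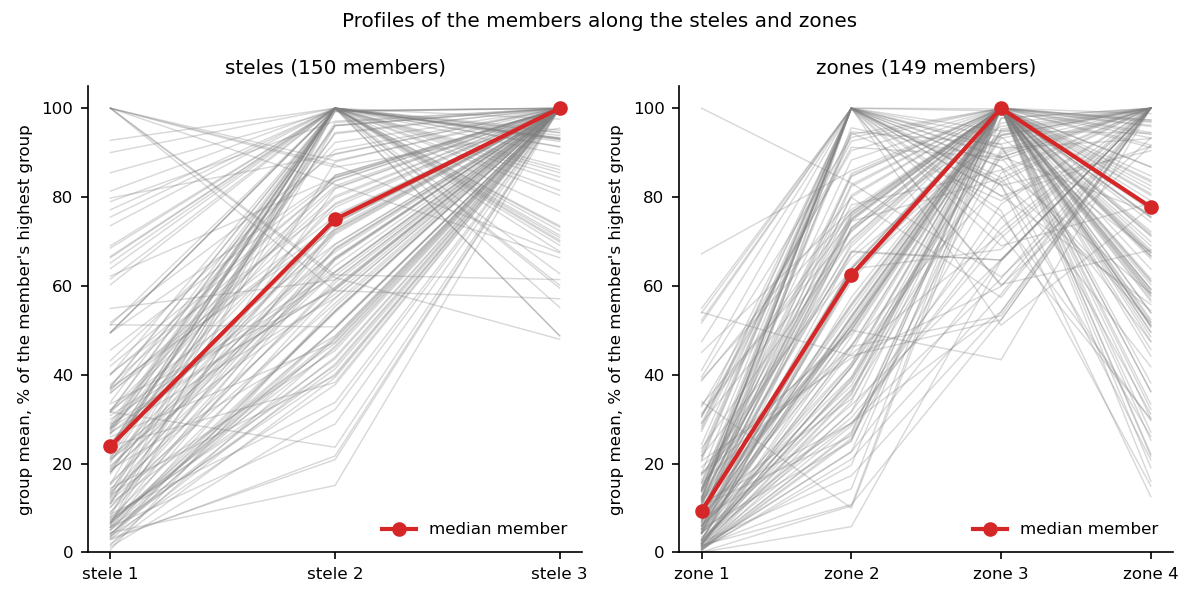
Group means of each member as a percentage of its own highest group (grey lines) along the steles (left, 150 members) and the zones (right, 149 members with a zone count), with the median member in red. In the steles 105 members peak in stele 3, and in the zones 142 members are lowest in zone 1 and 79 are highest in zone 3.

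For zone 2 against zone 1, edgeR called 141 of the 146 members that passed the filter higher and 0 lower. All tested genes gave 28.1% higher and 27.6% lower, and those without a zone peak 30.9% and 21.4%. At an unadjusted p under 0.05 edgeR also gave 0 members lower, beside 29.7% of all tested genes, and DESeq2 called 0 lower, beside 30.0%. The median log2 fold change was 2.85 over the members, 0.02 over all tested genes and 0.08 over those without a zone peak, and 136 of the calls were at least 2-fold. MA_9065834g0010 rose from 2.24, 2.40, 4.82, 1.36 and 3.19 CPM to 342, 225, 368, 229 and 294 CPM (edgeR log2 fold change 6.68 ± 0.23 SE, adjusted p = 1.92e-15, n = 5 each). MA_110656g0010 rose from 0.160, 0.370, 0.344, 0.227 and 0.228 CPM, 7 counts in all, to 27.7, 16.1, 46.0, 19.8 and 20.9 CPM (edgeR log2 fold change 6.51 ± 0.45 SE, adjusted p = 3.6e-11). The groups were far apart for both genes.

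From zone 2 to zone 3 most members rose again, by less. Here 89 members were called higher and 1 lower, beside 26.2% and 25.8% of all tested genes and 24.1% and 22.5% of those without a zone peak. The median log2 fold change was 0.68 over the members and -0.01 both over all tested genes and over those without a zone peak, and 54 of the calls were at least 2-fold. MA_293305g0010 rose from 16.7, 3.61, 17.2, 9.92 and 9.14 CPM to 165, 50.3, 188, 119.7 and 116 CPM (edgeR log2 fold change 3.63 ± 0.32 SE, adjusted p = 3.05e-09). MA_110656g0010 rose to 349, 152, 258, 213 and 272 CPM (edgeR log2 fold change 3.35 ± 0.22 SE, adjusted p = 8.65e-11). The single fall, MA_172793g0010, named after its values were seen, went from 5.13 ± 0.941 to 3.09 ± 0.939 CPM (n = 5 each, edgeR adjusted p = 0.0268) and was lost when any of 5 libraries was left out.

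From zone 3 to zone 4 the direction turned. There 74 members were called lower and 14 higher, beside 22.8% lower and 26.1% higher of all tested genes and 26.1% lower and 18.8% higher of those without a zone peak. The median log2 fold change was -0.43 over the members, 0.04 over all tested genes and -0.05 over those without a zone peak, and 34 falls and 1 rise were at least 2-fold. MA_270919g0010 fell from 102, 129, 76.9, 117 and 131 CPM to 19.9, 21.2, 15.2, 10.6 and 22.4 CPM (edgeR log2 fold change -2.74 ± 0.29 SE, adjusted p = 5.21e-08). MA_3198786g0010 fell from 66.5, 75.0, 43.6, 69.8 and 75.5 CPM to 15.7, 12.5, 12.3, 6.70 and 15.8 CPM (edgeR log2 fold change -2.48 ± 0.26 SE, adjusted p = 4.11e-08). Both held their lowest zone 3 value in replicate 3 and their lowest zone 4 value in replicate 4.

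The largest rise into zone 4 was that of MA_115880g0010, from 66.5, 49.4, 70.9, 62.0 and 49.1 CPM to 126, 147, 134, 162 and 117 CPM (edgeR log2 fold change 1.10 ± 0.14 SE, adjusted p = 8.22e-07). This gene is also one of the 7 members highest in stele 1, where it held 984, 638, 376 and 420.4 CPM, against 169.7, 477, 1037 and 425 CPM in stele 2 and 254, 628, 345 and 404 CPM in stele 3. MA_6668g0010 rose from 50.2 ± 16.0 to 95.9 ± 8.60 CPM (n = 5 each, edgeR log2 fold change 0.83 ± 0.28 SE, adjusted p = 0.0194), with a DESeq2 adjusted p of 0.0886. At each of the 3 steps 9 members were called higher, beside 2.40% of tested genes without a zone peak. By group means alone, without a test, 79 members went up to zone 3 and down after it, 34 went up through all 4 zones, and 18 went up to zone 2 and down at each step after it.

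Between the ends of the sampled stretch, zone 4 against zone 1 called 133 members higher and 2 lower. Over all tested genes 40.6% and 37.5% were called, and over those without a zone peak 38.0% and 34.6%. MA_293305g0010 had 1 count over all 5 zone 1 libraries and 235, 215, 171, 156 and 198 CPM in zone 4. Counts pooled over each zone and scaled to the summed library totals were 5022 times higher (95% interval of counting error 901 to 198384, adjusted p = 4.28e-14 by edgeR). In stele 1 this gene held 56.1, 0.135, 0.231 and 2.32 CPM, so replicate 1 alone brought it to the level of the rule. MA_110656g0010 held 208, 221, 221, 234 and 258 CPM in zone 4 (edgeR log2 fold change over zone 1 9.63 ± 0.39 SE, adjusted p = 4.79e-16).

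**Figure D5:**
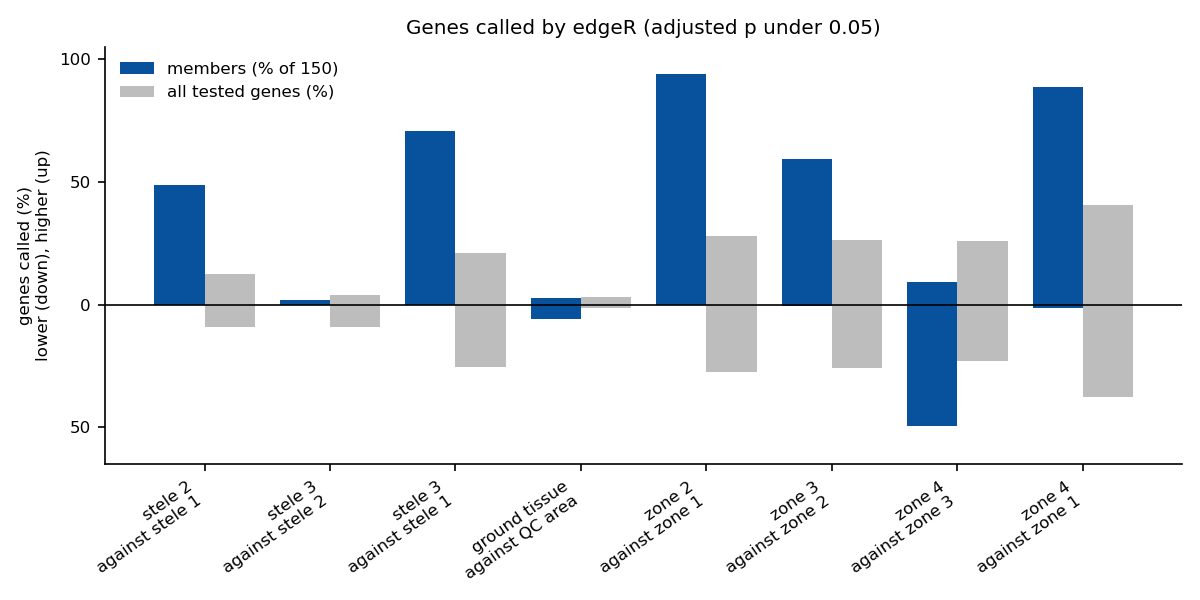
Percentage of the 150 members (blue) and of all tested genes (grey) called by edgeR at an adjusted p under 0.05 in each comparison, higher above the zero line and lower below it. The members exceed the grey bars upward in stele 2 and stele 3 against stele 1 and in zones 2 and 3 against the zone before and zone 4 against zone 1, and downward in zone 4 against zone 3. Nothing is read from the bars of the ground tissue against the QC area, where the rule had capped both levels. The part of that cap in the bars against stele 1 and zone 1 was not tested. Nor was the part of the lowest stele mean, which the rule also used, in the bars between steles.

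The 2 members called lower in zone 4 than in zone 1 had a clear level at the tip. MA_8566328g0010 held 60.0, 73.6, 74.0, 86.2 and 61.2 CPM in zone 1, 129 ± 12.3 CPM (SD) in zone 2 and 23.6, 42.8, 41.1, 18.1 and 43.1 CPM in zone 4 (n = 5 each). Its edgeR log2 fold change of zone 4 over zone 1 was -1.04 ± 0.19 SE (adjusted p = 2.15e-05). It had no count in any QC area library, and its stele 1 libraries held 54.9, 0.673, 1.04 and 3.99 CPM, so replicate 1 alone brought it to the level of the rule. MA_484445g0010, seen afterwards, fell from 4.00, 12.0, 12.2, 8.40 and 11.6 CPM to 4.43, 2.47, 2.34, 1.83 and 1.69 CPM (edgeR log2 fold change -1.92 ± 0.34 SE, adjusted p = 1.61e-05). Zone 4 replicate 1 overlapped zone 1 for this gene. MA_54476g0010 was the single member with its highest zone mean in zone 1, at 23.0 ± 4.64 CPM against 19.1 ± 3.92, 14.3 ± 3.31 and 21.5 ± 5.89 CPM in zones 2 to 4 (n = 5 each), and its zone libraries overlapped.

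For 14 members no zone mean reached 5 CPM, and for 3 none reached 1 CPM. MA_9965596g0010 had no count in any of the 20 zone libraries but a count in every stele library, at 17.0, 5.66, 3.23 and 3.22 CPM in stele 1, 9.69, 13.2, 27.8 and 12.9 CPM in stele 2 and 8.84, 23.1, 20.1 and 25.0 CPM in stele 3. MA_4910225g0010 held 127, 50.5, 6.58 and 45.5 CPM, 97.7, 41.8, 162 and 149 CPM and 95.5, 175, 306 and 41.9 CPM in the same libraries and at most 1.39 CPM in a zone library. MA_10384295g0010 held 61.6, 36.4, 6.12 and 31.7 CPM, 46.6, 25.6, 98.3 and 113 CPM and 40.4, 128, 152 and 18.6 CPM, and at most 0.987 CPM in a zone library. For both genes of this pair stele 3 replicate 3 was the highest and stele 1 replicate 3 the lowest stele library. These and MA_58875g0010, with 0.808 to 15.2 CPM in stele 1, 7.16 to 17.6 CPM in stele 2 and 6.40 to 11.1 CPM in stele 3, are the 4 members below the zone filter on low counts, and they were named after their values were seen. Extraction and the tissue sampled differ together between the tables and cannot be told apart.

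The zone calls were also counted by how far members differed among the steles, with no test of the difference. Of the 36 members over 10-fold apart among the steles, 36 were called higher in zone 2 than in zone 1 and 33 higher in zone 3 than in zone 2. Of the 27 members within 2-fold over the steles, 23 and 5 were. Over all tested genes 28.1% and 26.2% were called higher at these 2 steps. All genes were not split by their fold among the steles, so whether this contrast is particular to the members was not tested. Among the 73 members called higher in stele 2 than in stele 1, 60 were higher in zone 3 than in zone 2, compared with 29 of the other 77. Over all genes tested in both tables the same split gave 65.3% of 3180 and 16.1% of 20550, so a split of this kind was also present over all genes. Members highest in stele 3 were highest in zone 3 in 64 cases, in zone 4 in 32 and in zone 2 in 8, members highest in stele 2 were highest in zone 3 in 15, zone 2 in 12, zone 4 in 10 and zone 1 in 1, and members highest in stele 1 were highest in zone 2 in 5 cases and in zone 4 in 2.

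Across the 146 members tested in both tables, the log2 fold change of stele 2 over stele 1 had a Pearson's r of 0.62 and a Spearman's rho of 0.61 with that of zone 2 over zone 1, and 0.51 and 0.57 with that of zone 3 over zone 2. Over the 23730 genes tested in both tables the same coefficients were 0.73 and 0.74, and 0.62 and 0.62. Stele 3 over stele 2 and zone 4 over zone 3 had coefficients of 0.09 and 0.04 over the members and 0.06 and 0.10 over all genes. These are descriptions across genes, which share the libraries of each table and are not independent replicates.

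The scaffold part of the ID was shared with another gene ID for 21 of the 150 members, beside 17.4% of genes with at least 5 CPM in each stele. A shared scaffold does not show that genes are neighbours. Of the 23 other gene IDs on those scaffolds 3 reached 5 CPM in each stele and 1 passed the rule outside the first 150. Both genes were members on 2 scaffolds. MA_91294g0010 and MA_91294g0020 were close in stele 1, at 47.2, 15.5, 3.12 and 24.6 and 47.2, 15.2, 3.23 and 20.9 CPM, and in zone 3, at 150.1 ± 7.55 and 139 ± 14.3 CPM (SD, n = 5 each). They were farther apart in stele 3, at 331, 197, 280.5 and 189.8 and 194, 131, 148 and 126 CPM, and the first gene had the higher value in each library of steles 2 and 3. Their means were 183 ± 39.8 and 161 ± 45.9 CPM (SD, n = 4 each) in stele 2. MA_10429254g0010 and MA_10429254g0020 held 172, 135, 141 and 253 and 285, 222, 266 and 851 CPM in stele 3, and neither had a count in stele 1 replicate 3, the QC area or the ground tissue.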

How the data were processed

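Total RNA of 40 libraries was sequenced, 20 from zones and 20 from laser-captured regions. Trimmomatic, STAR and HTSeq are named in the submitters' processing notes. Versions, genome build, annotation and strandedness are not given there, so reads of overlapping or antisense genes cannot be told apart. The authors deposited whole-number read counts for each gene, unnormalized, in 1 table for each kind of library, with 70736 gene IDs in each. The stele columns are not headed as such and were identified by elimination. Replicates differed by more than sampling noise (chi-square per gene at least 1.90), so none were merged.

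CPM, the count times 1000000 over the library total, was computed per library. Group means of CPM chose the members. Each table was fitted in edgeR 4.0.16 (R 4.3.3) with TMM scaling, filterByExpr, all groups in 1 model and glmQLFTest, with Benjamini-Hochberg adjustment over 27239 captured or 27767 zone genes and a threshold of 0.05. The filter kept 150 and 146 members. Each SE was computed as the absolute log2 fold change over the square root of F. Bounds use a floor of 3 counts over the group, and the 95% intervals are exact binomial, both from counts pooled over the libraries of a group. Both reflect counting error alone, because without molecular identifiers several reads may stem from 1 molecule.

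The members and lists were chosen with earlier results of these data known. Genes named are the 4 highest scores, the 2 on each side of the rank limit, the 2 highest and the 2 most even stele means, members sharing a scaffold and, per comparison, the 2 largest rises and falls among calls averaging at least 10 CPM without overlap. Others are said to have been seen first.

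Replicate numbers recur across groups. Same-numbered libraries of zones 2 and 3 deviated together (r 0.122 to 0.336 across genes, 5 pairs), which met the limit for paired numbers, but the values reported come from the fit without the block. No other comparison had every correlation above 0.1. Alternatives were DESeq2 1.42.0 and its size factors, total-count scaling, no filter, a replicate block, lane, only the groups compared, and leaving out each library.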

Additional observations from a re-analysis of the deposited data

Results flagged for a closer look

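In 8 of 81 groups of 4 or 5 libraries examined, 1 library stood apart from the others by Dixon's 95% criterion, where chance alone gives about 1 in 20. The 81 were not every group of libraries printed above, so the share does not hold over all named genes. In stele 1 replicate 1, MA_10432781g0010 stood high at 267 CPM and MA_9065834g0010 at 31.2 CPM. In stele 3 replicate 4, MA_264606g0010 was high at 872 CPM. In the QC area, MA_74039g0010 was high in replicate 2 at 1.03 CPM, and the single count of MA_470854g0010 put replicate 3 at 0.107 CPM. In the zones, MA_3198786g0010 was low in zone 3 replicate 3 at 43.6 CPM, MA_484445g0010 was high in zone 4 replicate 1 at 4.43 CPM, and the single zone 1 count of MA_293305g0010 gave 0.227 CPM in replicate 4. Groups outside the 81 also held high libraries. In stele 1 replicate 1, MA_293305g0010 stood at 56.1 CPM and MA_8566328g0010 at 54.9 CPM. In zone 3 replicate 3, MA_10432716g0020 stood at 29.1 CPM.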

How the results depend on the processing

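Of the 150 members, 146 still passed the rule with TMM-scaled CPM, 142 of them among the first 150, 135 with group medians, 120 of them among the first 150, and 134 to 150 with single libraries left out. The 134 came without stele 1 replicate 1. Then MA_293305g0010, MA_9065834g0010 and MA_8566328g0010 fell below 5 CPM in stele 1. The 2-fold condition alone held for 145 within lane 8, which has no stele 2 library, and for 150 within lane 7 against its 1 ground tissue library. For stele 2 over stele 1, 43 members were higher with only both groups in the fit (7.60% of all genes tested there) and 31 within lane 7 (2.00%). Without single libraries the number ran from 54 (2657 of all 28349 genes tested) to 102 (3654 of 28243). For stele 3 over stele 2, 5 were higher with DESeq2's size factors (1331 of all 27239 genes tested) and 6 with the replicate block (1018 of 27239). With lane as a term 6 were higher (3.68%), and with DESeq2 6 (7.98%). With only both groups in the fit 17 were higher (2.51% of all genes tested there). Without single libraries the number ran from 2 (600 of 28267) to 5 (1313 of 28198). For stele 3 against stele 1, 91 (5253 of all 28349 genes tested) to 113 (6028 of 28243) were higher without single libraries. The number lower differed from 0 only within lane 8, where stele 3 has 1 library. For ground tissue over the QC area, 2 were higher with the replicate block, 22 with DESeq2 and 1 to 3 without single libraries, and 4 to 8 were lower without single libraries. For zone 3 against zone 2, 0 to 1 were lower without single libraries. The cause was not tested. Every other count stayed within 1.5 times under each alternative run, and no log2 fold change of a named gene changed sign. Medians over all genes lay near 0 and did change sign, to 0.04 for stele 2 over 1 within lane 7 and to -0.04 and 0.04 for zones 2 over 1 and 3 over 2 with DESeq2's size factors. Of the single-gene values under alternatives, 466 kept their side of the threshold and 60 lost it, mostly in ground tissue against the QC area. The replicate block changed no other count by over 1.5 times (78 higher for stele 2 over stele 1, 95 for zone 3 over zone 2), and same-numbered libraries correlated at -0.091 to 0.196 for stele 2 and stele 1. Total-count scaling moved the median log2 fold change of all genes to -0.22, -0.34 and -0.60 for stele 2 over 1, 3 over 2 and 3 over 1, beside 1.78, 0.36 and 2.00 for the members, and to -0.11 and 0.14 for zones 3 over 2 and 4 over 3, beside 0.58 and -0.32. For the 27 members with no QC area count, a level under 3 counts over that group could not be seen.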
